A study of Mus musculus with 4 samples.

Results

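The Myc, Max and Mxd network is a family of transcription factors that pair through a basic helix-loop-helix leucine zipper, and it was described here in cultured MuSC with and without Prmt5. Its members were taken by name, as the 3 Myc genes, the common partner Max, the 4 Mxd repressors including Mxi1, and the Max-binding repressors Mnt and Mga. All 10 members were among the 20065 genes of the deposited table, and all 10 passed the filter on low counts. Myc proteins bind E-box sequences as partners of Max and activate genes of ribosome biogenesis, metabolism and the cell cycle. Mxd proteins and Mnt compete for the same partner, bind the same sequences and recruit corepressors, and the balance between both sides is a known switch between proliferation and differentiation. MuSC, the satellite cells of skeletal muscle, proliferate as myoblasts once activated and later leave the cell cycle and fuse.

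Total RNA of cultured MuSC from limb and trunk muscles of adult C57BL/6 mice was sequenced after depletion of ribosomal RNA, with 2 control and 2 Prmt5sKO libraries. Prmt5 is an arginine methyltransferase that acts on histones and on splicing proteins, and the comparison asked which genes depend on it in these cells. Control cells had the strain Pax7CreERT2/Prmt5+/loxP (+TAM), so they also carried the Cre and 1 floxed allele although their genotype is labelled wild type, and Prmt5sKO cells had the strain Pax7CreERT2/Prmt5loxP/loxP (+TAM). In both, the Cre is inducible and is expressed only where Pax7 is active, and the study's methods describe a tamoxifen derivative added to the cultures. The libraries carry no replicate number in the deposited values, so they are named by depth, and wherever a pair of values is given for a group its deeper library comes first. The labels do not say whether the libraries of a group came from separate mice or cultures. The p-values therefore measure only the spread between these libraries, part of which may be technical.

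RefSeq for GRCm38.p6 held promoter windows of 9 of the 10 members, 11 windows in all. Each ran from 250 bases before to 50 bases after a transcription start. Myc had no window and was not searched. Both strands were searched for the E-box CACGTG that Myc:Max and Mxd:Max bind, for the related CACGCG and for the E2F site TTTGGCGC. The E-box was in the windows of Mxd4, Mnt and Max, beside 7.15% of all 32851 windows. The 3 genes with the match sat on both sides of the results, since Mxd4 was the member with the widest separation of the groups, Mnt was lower and Max did not differ in order. These stretches are shown with the E-box in capitals.
Mxd4 (chr5:34187711-34187960, minus strand): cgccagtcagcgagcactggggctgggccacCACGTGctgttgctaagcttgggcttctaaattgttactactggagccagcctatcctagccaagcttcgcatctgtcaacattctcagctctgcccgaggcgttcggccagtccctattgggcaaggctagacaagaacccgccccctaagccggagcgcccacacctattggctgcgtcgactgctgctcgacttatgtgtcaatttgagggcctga
Mnt (chr11:74830777-74830830, plus strand): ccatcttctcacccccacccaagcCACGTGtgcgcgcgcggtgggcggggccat
Max (chr12:76962222-76962275, minus strand): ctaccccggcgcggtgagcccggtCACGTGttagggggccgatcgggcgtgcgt
In Mxd4 the match began 219 bases before the RefSeq start, in Mnt 123 bases and in Max 3 bases. CACGCG was in the windows of Mga, 21 bases before the start, and of Mycl, 20 bases before it, and in 9.27% of all windows. The E2F site matched at 2 positions in Mycn, 183 and 168 bases before the start, and in 0.514% of all windows. It is shown because Mycn alone had this motif among the 9 members with a window, with both matches in capitals.
Mycn (chr12:12941977-12942039, minus strand): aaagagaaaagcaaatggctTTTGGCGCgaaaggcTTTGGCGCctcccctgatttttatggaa
A match says only that these letters are in the window, and no match only that they are not.

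The recovered counts summed to between 13240754 and 20047430 per library. Prmt5 had 2273 and 2906 normalized counts in the controls and 244 and 202 in Prmt5sKO, with a log2 fold change of -3.52 (SE 0.27, adjusted p = 0.193) for Prmt5. Normalized counts are reads divided by the library size after TMM scaling, times the mean of these scaled sizes. All 9 satellite cell markers were present, with Pax7 between 2570 and 3664 normalized counts. The shallower Prmt5sKO library stood apart, since all 15 muscle differentiation markers were higher in it than in the deeper Prmt5sKO library, with a median log2 difference of 3.60. Their summed level was 53179 and 98540 normalized counts in the controls and 48592 and 432513 in Prmt5sKO. Of these sums, Ttn alone held 39149 and 90033 in the controls and 28428 and 171011 in Prmt5sKO. Both Prmt5sKO libraries lay above both controls for 11 of the 15 markers and below for 0, beside 25.2% and 23.6% of all genes. Of 16 markers of endothelial, haematopoietic, fibro-adipogenic, Schwann, smooth muscle and pericyte cells, 13 were in the table, and without Rgs5 they summed to 335, 397, 230 and 224 normalized counts in the same order. Ptprc, Adgre1 and Dpp4 were not found among the 20065 genes. Cdh5 had 2.26 and 14.3 normalized counts in the controls and 0.741 and 0 in Prmt5sKO. Sox10 had 3.39 and 2.59 against 0.741 and 0 in the same order, so both were thinly counted in every library. Xist had 8668 and 23.3 normalized counts in the controls and 8.15 and 5655 in Prmt5sKO. Each group thus held 1 library with a high and 1 with a low level, and the labels give no sex. With levels so unlike, the libraries of a group were not repeats of the same RNA. In bulk RNA, fewer cells of a type and less RNA per cell cannot be told apart.

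No member was called at an adjusted p of at most 0.05 with a fold change of at least 2 in limma-voom with Benjamini-Hochberg adjustment. The same test called 0 of all 16212 genes tested (0.00%), and limma-trend also called 0. At an unadjusted p under 0.05 there was 1 of the 10 members, Mxd4, beside 2101 of all genes (13.0%). In 5 of the 10 members both Prmt5sKO libraries lay on the same side of both control libraries, which held for 48.8% of all genes. Mxd4 and Mga were higher, as were 25.2% of all genes, and Myc, Mxd3 and Mnt were lower, as were 23.6%. The median log2 fold change of the members was -0.23 (-0.09 without the deeper and -0.16 without the shallower Prmt5sKO library), that of all genes was 0.02, and the quartiles of all genes were -0.40 and 0.50. The counts of members are therefore close to those of any genes, and the values of each member are given with that limit.

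**Figure D1:**
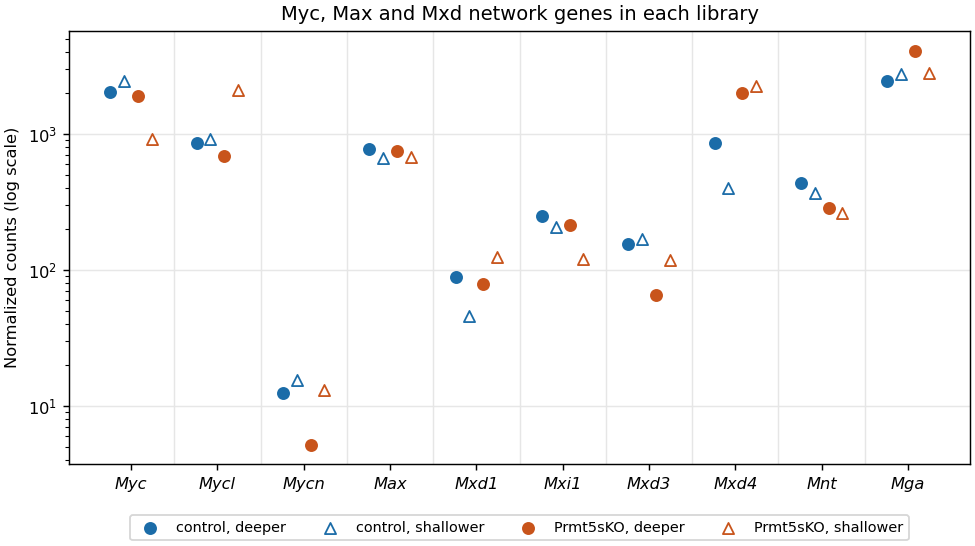
Normalized counts (log scale) of the 10 members in the 4 libraries, with circles for the deeper and triangles for the shallower library of each group. Both Prmt5sKO libraries lay above both controls for Mxd4 (1999 and 2228 against 858 and 397) and Mga, both lay below for Myc, Mxd3 and Mnt, and the groups overlapped for the other 5.

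Myc is the founding member of the family and the activator with the broadest set of targets. Myc (ENSMUSG00000022346, chr15:61985391-61990374, plus strand, GRCm38) had 2040 and 2438 normalized counts in the controls and 1884 and 908 in Prmt5sKO. Both Prmt5sKO libraries were below both controls, but the deeper one was only 1.08-fold below the nearer control, so most of the difference came from the shallower one. The mean was 2239 ± 282 (SD, n = 2) over the controls and 1396 ± 690 (SD, n = 2) over Prmt5sKO, and the log2 fold change was -0.76 (SE 0.36, 95% interval -1.65 to 0.13, adjusted p = 0.423). Without the shallower Prmt5sKO library, the one with the high differentiation markers, the log2 fold change of Myc was -0.24. Without the deeper one it was -1.30 with an adjusted p of 0.0420, in a fit that assumes the lone library to vary like the controls.

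Mycl encodes L-Myc, a family member with weaker transforming activity than Myc. Mycl (ENSMUSG00000028654, chr4:122995652-123002485, plus strand) had 861 and 910 normalized counts in the controls and 685 and 2111 in Prmt5sKO. The single high library was the one with the high differentiation markers, and the groups overlapped. The log2 fold change was 0.43 (SE 0.52, 95% interval -0.84 to 1.70, adjusted p = 0.734). It turned to -0.37 without the shallower Prmt5sKO library, and it was 1.25 with an adjusted p of 0.0388 without the deeper one. The differentiation markers and Mycl were thus high in the same library, and the part of differentiation in the level of Mycl was not tested.

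Mycn encodes N-Myc, the family member best known from embryonic and neural progenitors. Mycn (ENSMUSG00000037169, chr12:12936093-12941914, minus strand) was counted with 11 and 12 reads in the controls and 7 and 13 in Prmt5sKO. These correspond to 12.4, 15.6, 5.19 and 13.1 normalized counts, the deeper Prmt5sKO library was lowest, and the groups overlapped. With so few reads the log2 fold change of -0.80 had an SE of 0.90 and a 95% interval from -2.99 to 1.38. As a fold this is 0.126 to 2.61, so a difference within that range could not be told from none.

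Max is the partner that Myc proteins need to bind DNA, and Mxd proteins, Mnt and Mga bind it too. Max (ENSMUSG00000059436, chr12:76937269-76962201, minus strand) had 770 and 660 normalized counts in the controls and 748 and 674 in Prmt5sKO. Both Prmt5sKO values lay between the control values. The log2 fold change was -0.01 (SE 0.22) with a 95% interval of -0.55 to 0.54, which as a fold is 0.685 to 1.45, so a moderate difference in either direction was not detectable. It changed sign with the scaling, to 0.10 where only the library size was used.

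Mxd4 encodes Mad4, a repressor found in cells that leave the cell cycle. Mxd4 (ENSMUSG00000037235, chr5:34173883-34187720, minus strand) had 858 and 397 normalized counts in the controls and 1999 and 2228 in Prmt5sKO. Both Prmt5sKO libraries were high and close to each other, the lower of them was 2.33-fold above the higher control, and the controls differed more among themselves. The mean was 627 ± 326 (SD, n = 2) over the controls and 2113 ± 162 (SD, n = 2) over Prmt5sKO. The log2 fold change was 1.84 (SE 0.36, 95% interval 0.95 to 2.73), a fold of 3.57, with an unadjusted p of 0.00230 and an adjusted p of 0.231. Leaving out 1 library at a time gave log2 fold changes between 1.31, without the shallower control, and 2.40, without the deeper control. Without the deeper Prmt5sKO library the adjusted p was 0.0463, and without the other 3 in turn Mxd4 stayed above 0.05 adjusted and under 0.05 unadjusted.

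The level of Mxd4 was near equal in both Prmt5sKO libraries, with a log2 difference of 0.16 from the deeper to the shallower one. For the 15 differentiation markers the median of this difference was 3.60. Of these markers, 11 were above both controls in both Prmt5sKO libraries, beside 25.2% of all genes. The part of differentiation in the level of Mxd4 was not tested. Other measures differed between the groups as well. Rgs5, a pericyte marker, had 1774 and 128 normalized counts in the controls and 2367 and 4163 in Prmt5sKO, while the 12 other markers of the list that were in the table summed to less in both Prmt5sKO libraries than in the controls, and the smooth muscle marker Myh11 was at or below 10.2 in all 4. The share of reads on the transcripts Gm42418, Gm26917 and Gm15564 and on Lars2, which take up residual ribosomal RNA, was 6.67% and 15.2% in the controls and 1.94% and 2.67% in Prmt5sKO. The control with the larger share was also the one with the lower Mxd4, and the part of these measures in the result was not tested. The exons of Mxd4 share 514 bases with the antisense gene Gm42846, and the sources used here do not give a strand setting for the counting, so reads of both cannot be told apart.

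Mxd3 encodes Mad3, an unusual family member that is expressed in proliferating cells. Mxd3 (ENSMUSG00000021485, chr13:55325168-55329823, minus strand) had 155 and 167 normalized counts in the controls and 65.2 and 119 in Prmt5sKO. It was below both controls in both Prmt5sKO libraries, with a log2 fold change of -0.91 (SE 0.43, 95% interval -1.96 to 0.13, adjusted p = 0.416). Here the deeper Prmt5sKO library, with lower differentiation markers than the shallower one, was furthest from the controls. Mxd3 shares 105 exonic bases with Prelid1 on the opposite strand, a gene with normalized counts between 3608 and 4411 in the 4 libraries and a log2 fold change of -0.09. Reads in the shared bases cannot be told apart.

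Mxd1 encodes Mad1, a repressor induced in many cell types when they differentiate. Mxd1 (ENSMUSG00000001156, chr6:86647042-86669161, minus strand) had 88.1 and 45.4 normalized counts in the controls and 79.3 and 124 in Prmt5sKO. The groups overlapped and the log2 fold change of 0.58 (SE 0.53, adjusted p = 0.649) had an interval from -0.71 to 1.87. Mxi1, also called Mad2, antagonizes Myc in the same way. Mxi1 (ENSMUSG00000025025, chr19:53310518-53375810, plus strand) had 247 and 205 normalized counts in the controls and 215 and 120 in Prmt5sKO. Its lowest library was the shallower Prmt5sKO one, the groups overlapped, and the log2 fold change was -0.45 (SE 0.39, 95% interval -1.40 to 0.50, adjusted p = 0.634). The exons of Mxi1 share 194 bases with Gm10197 on the opposite strand, and reads in the shared bases cannot be told apart.

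Mnt is the broadly expressed antagonist of Myc that is present in proliferating and resting cells alike. Mnt (ENSMUSG00000000282, chr11:74830920-74845725, plus strand) had 434 and 364 normalized counts in the controls and 283 and 263 in Prmt5sKO. Both Prmt5sKO libraries were below both controls and close to each other. Mnt had a log2 fold change of -0.54 (SE 0.26, 95% interval -1.18 to 0.09, adjusted p = 0.425) and values between -0.66 and -0.43 with 1 library left out.

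Mga is a large Max-binding protein that also carries a T-box domain and belongs to a variant Polycomb repressor complex. Mga (ENSMUSG00000033943, chr2:119897228-119969581, plus strand) had 2432 and 2725 normalized counts in the controls and 4056 and 2786 in Prmt5sKO. The shallower Prmt5sKO library was only 1.02-fold above the nearer control, so the separation rested on the deeper one. The log2 fold change was 0.38 (SE 0.25, 95% interval -0.23 to 0.99, adjusted p = 0.532), and 0.11 without the deeper Prmt5sKO library.

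**Figure D2:**
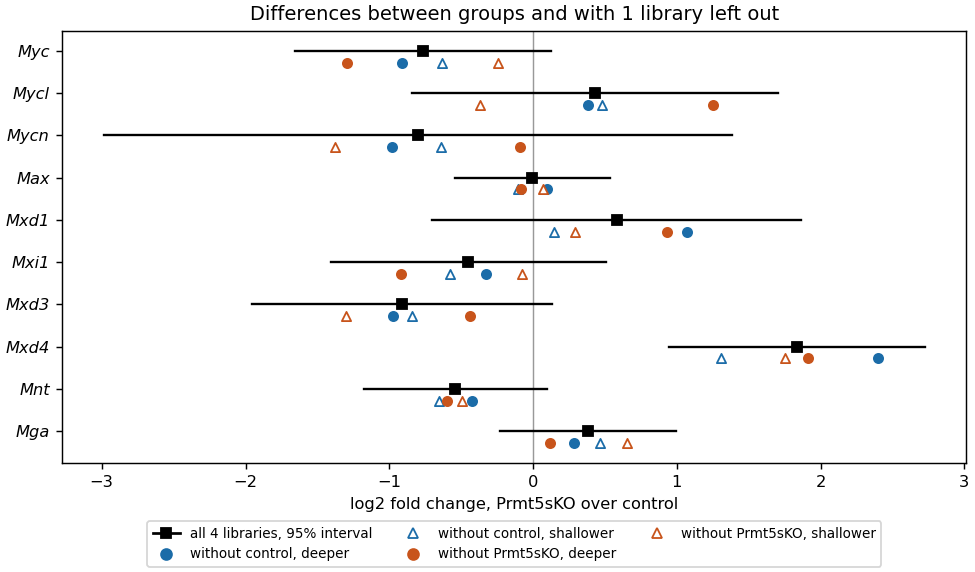
Log2 fold change of Prmt5sKO over control for each member from all 4 libraries (squares, bars as 95% intervals) and with 1 library left out (circles without the deeper, triangles without the shallower library of a group). Mxd4 stayed between 1.31 and 2.40, Mycl moved from -0.37 to 1.25 with the Prmt5sKO library that was left out, and every interval but that of Mxd4 crossed 0.

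To compare levels between members, normalized counts were divided by the merged exon length of each gene in kb. Myc had the highest level per kb of all members in 3 libraries, with 751 and 897 in the controls and 693 in the deeper Prmt5sKO library. In the shallower Prmt5sKO library Mycl was first with 523 per kb and Myc was next with 334, whereas by the longest coding transcript Mxd4 (575 per kb) came between Mycl (603) and Myc (388). Mycn had the lowest level per kb in every library, between 1.57 and 4.72. Max lay between 183 and 214 per kb and Mga between 159 and 264, and these ranges overlapped, but with the longest coding transcript of each gene as its length Max lay between 340 and 396 per kb and above Mga, at 175 to 291.

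The Myc genes together summed to 968 and 1128 per kb in the controls and to 865 and 861 in Prmt5sKO, so both Prmt5sKO sums lay below both controls and close to each other. Myc held 77.6% and 79.6% of it in the controls and 80.2% in the deeper Prmt5sKO library, but 38.8% in the shallower one, where Mycl held 60.7%. This exchange of Myc for Mycl was seen in the single library with the high differentiation markers, so it has no replicate.

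The Mxd genes summed to 215 and 154 per kb in the controls and to 306 and 348 in Prmt5sKO, without overlap. Mxd4 held 47.0% and 30.4% of the sum in the controls and 77.0% and 75.5% in Prmt5sKO. It was the only Mxd gene that was higher without overlap. Mxd3 was lower, with 65.4 and 70.6 per kb in the controls and 27.5 and 50.1 in Prmt5sKO, and Mxi1 and Mxd1 overlapped. By level per kb Mxd4 ranked 5 and 7 among the 10 members in the controls and 3 in both Prmt5sKO libraries. By the longest coding transcript it ranked 4 and 6 in the controls and 2 in both Prmt5sKO libraries. The ratio of the Myc genes to the Mxd genes per kb was 4.50 and 7.33 in the controls and 2.83 and 2.48 in Prmt5sKO. With the longest coding transcript of each gene as its length the ratios were lower, at 2.76, 4.69, 1.61 and 1.39 in the same order, and again did not overlap. The ratio of Myc alone to Mxd4 was 7.42 and 19.2 in the controls and 2.94 and 1.27 in Prmt5sKO, and by the longest coding transcript 3.94 and 10.2 against 1.56 and 0.675, so which of them was higher in the shallower Prmt5sKO library depended on the length used. These sums describe RNA levels, were formed with the values of the members known, and were not tested.

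**Figure D3:**
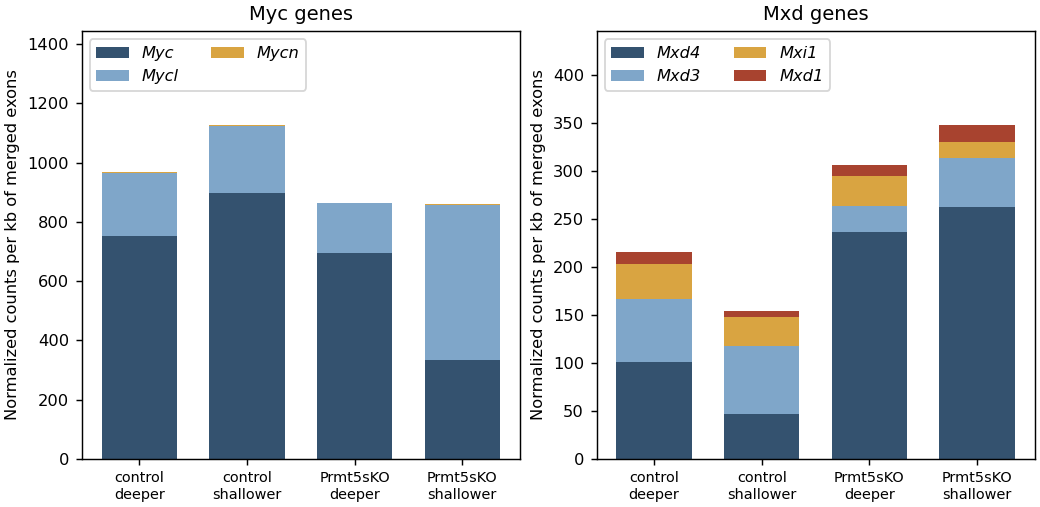
Normalized counts per kb of merged exons, stacked for the Myc genes (left) and the Mxd genes (right) in each library. The Myc sums lay between 861 and 1128 with Mycl as the larger part in the shallower Prmt5sKO library only, and the Mxd sums were 215 and 154 in control against 306 and 348 in Prmt5sKO with Mxd4 as the larger part.

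The 2 Prmt5sKO libraries differed from each other in the members, and with 1 library on each side these are values without a test. From the deeper to the shallower Prmt5sKO library the log2 difference was 1.62 for Mycl, 1.33 for the thinly counted Mycn, 0.86 for Mxd3 and 0.64 for Mxd1. It was -1.05 for Myc, -0.84 for Mxi1 and -0.54 for Mga, and near 0 for Max (-0.15), Mnt (-0.10) and Mxd4 (0.16). The median over all genes was -0.02. Mxd4 and Mnt were therefore the members with separated groups whose Prmt5sKO libraries lay closest to each other, whereas the values of Myc, Mycl, Mxd3 and Mga depended on which Prmt5sKO library was read. At an unadjusted p under 0.05 there were Mxd4, Myc and Mycl without the deeper Prmt5sKO library, beside 18.6% of all genes, and Mxd4, Mxd3 and Mga without the shallower one, beside 16.2%. Within the pair of libraries with high Xist and within the pair with low Xist, 6 of the 10 members differed in the same direction, as did 65.3% of all genes tested. Among them, Mxd4 differed by 1.38 and 2.33 on the log2 scale, Myc by -1.17 and -0.37, Mnt by -0.72 and -0.36, Mxd3 by -0.38 and -1.36, Mga by 0.20 and 0.57, and Mxd1 by 0.49 and 0.80.

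Mlx is the second partner for Mxd1, Mxd4 and Mnt, and with Mlxip or Mlxipl it activates the glucose-responsive genes Txnip and Arrdc4. Mlx had 407 and 718 normalized counts in the controls and 868 and 859 in Prmt5sKO, with a log2 fold change of 0.69 (SE 0.31, adjusted p = 0.403). Mlxip overlapped between the groups, with a log2 fold change of -0.17. Mlxipl had 5.65 and 0 normalized counts in the controls and 17.0 and 11.1 in Prmt5sKO. Both targets were higher in both Prmt5sKO libraries. Txnip had 12.4 and 18.2 normalized counts in the controls and 71.1 and 71.4 in Prmt5sKO (log2 fold change 2.21, SE 0.63, adjusted p = 0.285). Arrdc4 had 10.2 and 7.78 normalized counts against 41.5 and 53.3 in the same order (log2 fold change 2.29, SE 0.75, adjusted p = 0.323). These 2 of the 5 genes had an unadjusted p under 0.05 with a higher level, as had 6.01% of all genes. The median log2 fold change of the list was 2.21, and it was 1.23 without the shallower control and 1.45 without the deeper Prmt5sKO library, where 4 of the 5 genes passed the filter.

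Myc acts through coactivators, among them the acetyltransferase scaffold Trrap, the chromatin remodeller Ep400 with its subunit Actl6a, and the histone methylation adaptor Wdr5. For all 8 coactivators listed, both Prmt5sKO libraries lay below both controls, beside 23.6% of all genes, and an unadjusted p under 0.05 was reached by 6, beside 6.95%. The log2 fold changes were -0.84 for Wdr5, -0.74 for Ep400, -0.65 for Actl6a and -0.62 for Trrap, with adjusted p-values from 0.300 to 0.335. Without the shallower Prmt5sKO library the count at an unadjusted p under 0.05 was 3. Zbtb17, which encodes Miz1, the factor through which Myc represses, was higher in both Prmt5sKO libraries, with a log2 fold change of 0.33 (SE 0.21).

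Mxd proteins and Mnt repress through Sin3 scaffolds and histone deacetylases. Both Prmt5sKO libraries lay above both controls for Sin3b and Hdac1, as for 25.2% of all genes, with unadjusted p-values of 0.328 and 0.351. The groups overlapped for Sin3a, Hdac2 and the corepressor Ncor1, with log2 fold changes of -0.20, -0.06 and -0.15. The complex of Mga holds Pcgf6, E2f6, Tfdp1 and others, and 6 of its 9 genes were lower and 1 was higher without overlap, beside 23.6% and 25.2% of all genes. Tfdp1, the dimer partner of E2F factors, was the only one at an unadjusted p under 0.05, where 6.95% of all genes were lower, with a log2 fold change of -0.66 (SE 0.19, adjusted p = 0.295).

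Of 13 genes that control the stability of Myc protein, 7 were lower and 1 was higher without overlap, beside 23.6% and 25.2% of all genes. An unadjusted p under 0.05 was reached by 4, all lower, beside 6.95% of all genes. Skp2, a ubiquitin ligase subunit that turns Myc over, had a log2 fold change of -1.19 (SE 0.28, adjusted p = 0.252). Cip2a, an inhibitor of the phosphatase that destabilizes Myc, had -0.76 (SE 0.26), the kinase Aurka had -0.72 (SE 0.27) and the deubiquitinase Usp36 had -0.59 (SE 0.23). By role, 1 of the 7 genes that destabilize Myc and 3 of the 6 that stabilize it were among these 4, and Myc protein was not measured.

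Myc targets were described as 3 lists with 67 genes, all tested. At an unadjusted p under 0.05 there were 31 lower and 0 higher, beside 6.95% lower and 6.01% higher of all genes. Without overlap of the groups, 47 were lower and 2 higher, beside 23.6% lower and 25.2% higher of all genes. In limma-voom 0 of the 67 passed the adjusted threshold. In ribosome biogenesis, 17 of 30 were lower at an unadjusted p under 0.05, and the median log2 fold change was -0.59. The largest differences were those of Tcof1 (-1.27, SE 0.22), which supports transcription of ribosomal RNA genes, and of the nucleolar proteins Npm1 (-1.10, SE 0.34), Ncl (-1.04, SE 0.28) and Nop56 (-1.01, SE 0.20). Ncl had 17660 and 23773 normalized counts in the controls and 11994 and 8365 in Prmt5sKO, so both libraries without Prmt5 were lower. Only 5 of the 30 ribosome biogenesis genes were higher in the shallower than in the deeper Prmt5sKO library, and without the shallower one 12 of the 30 and 26 of the 67 targets were lower at an unadjusted p under 0.05, beside 7.27% of all genes.

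In metabolism the median log2 fold change was -0.45. At an unadjusted p under 0.05, 11 of 25 targets were lower, beside 6.95% of all genes. They were led by the folate carrier Slc19a1 (-1.27, SE 0.32), the serine hydroxymethyltransferase Shmt1 (-1.25, SE 0.22), the nucleotide phosphatase Dctpp1 (-1.24, SE 0.28) and the amino acid transporter Slc7a5 (-1.20, SE 0.38). For the 12 targets in cell cycle and translation the median was -0.26 (-0.39 to -0.17 with 1 library left out). At an unadjusted p under 0.05, 3 of them were lower, beside 6.95% of all genes. These were the phosphatase Cdc25a (-1.41, SE 0.24), which drives entry into S phase, the translation factor Eif4g1 (-0.58, SE 0.20) and Pa2g4 (-0.56, SE 0.20). Cdc25a was at a like level in both Prmt5sKO libraries, with 1322 and 1744 normalized counts in the controls and 533 and 615 in Prmt5sKO.

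Among 7 genes that Myc is known to repress, 4 were higher without overlap, beside 25.2% of all genes, and the other 3 overlapped. Their median log2 fold change was 1.17, and it was 0.55 without the shallower control and 0.80 without the shallower Prmt5sKO library. Cdkn1a, the cell cycle inhibitor p21, had 3379 and 2057 normalized counts in the controls and 8358 and 15703 in Prmt5sKO (log2 fold change 2.13, SE 0.38, unadjusted p = 0.00141, adjusted p = 0.214). Cebpa, a differentiation factor of other lineages, had a log2 fold change of 1.42 (SE 0.44, adjusted p = 0.307). Cdkn1a was highest in the library with the high differentiation markers and was also above both controls in the other Prmt5sKO library. The parts of Myc and of differentiation in the level of Cdkn1a were not tested.

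**Figure D4:**
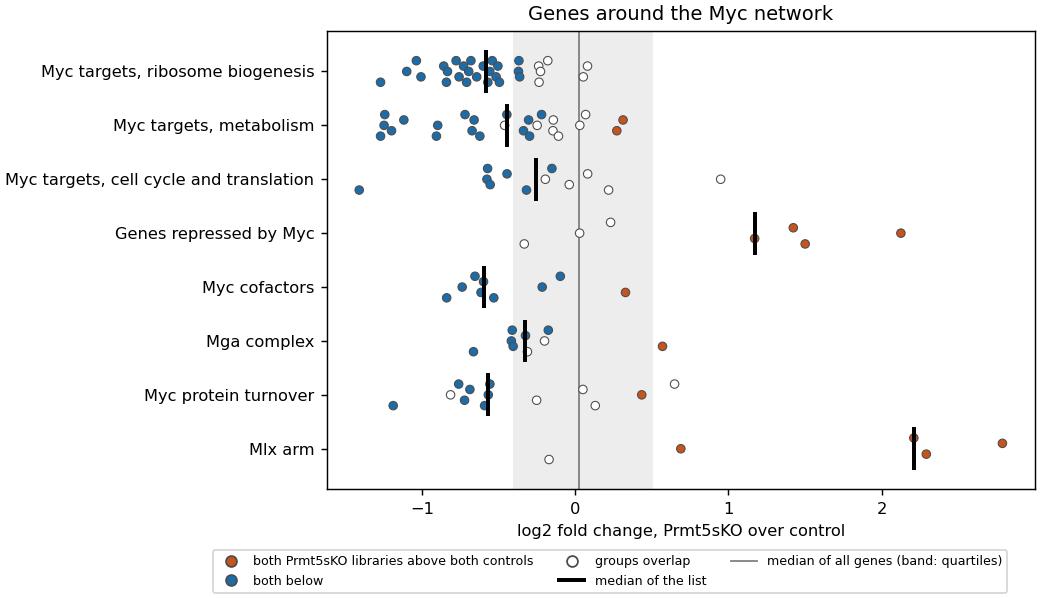
Log2 fold change of each gene in 8 lists around the network, coloured by whether both Prmt5sKO libraries lay above (orange) or below (blue) both controls, with a black bar at the median of each list and a grey line and band at the median and between the quartiles of all genes. Ribosome biogenesis targets (median -0.59) and cofactors (median -0.60) lay mostly to the left, and the Mlx arm (median 2.21) and the genes repressed by Myc (median 1.17) to the right, with medians of 1.23 and 0.55 without the shallower control.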

How the data were processed

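RNA-seq of 2 control and 2 Prmt5sKO libraries of cultured MuSC was analysed. Per the labels and the study's methods, reads were aligned to GRCm38 with STAR (2.4.0a), assigned to genes and tested with DESeq2 (1.62, as the submitters' processing notes give the version). For each of 20065 genes, whose means over all libraries start at 0.90, the authors deposited signal values that are group averages of read counts after division by DESeq2 size factors. The deposited log2 fold changes, their standard errors, p-values and adjusted p-values are the authors' own comparison (4 columns) and were not used. An average over a pair of libraries moves in steps, 1 step size per library, and solving for these returned whole counts for 100.0% of the genes (relative tolerance 1e-12). Their totals were 14436914 and 13240754 reads for the controls and 20047430 and 16190414 for Prmt5sKO, deeper library first.

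Own code for TMM (trims of 30% and 5%) scaled the counts, and limma-voom (limma 3.58.1, R 4.3.3) was fitted with genotype only over the 16212 genes whose mean normalized count reached 5, with Benjamini-Hochberg adjustment over all of them. Calls needed an adjusted p no higher than 0.05 together with a change of 2-fold or more. Recovery and test were tested on simulated data. Symbols, positions and exon lengths came from GENCODE M21, which held 19782 of the identifiers. The members and lists were chosen with earlier results of these data known. Named genes are all members, Prmt5, a few fixed genes (Mlx, Mlxip, Mlxipl, Txnip, Zbtb17, Cdkn1a) and from each list up to 4 genes with the largest absolute log2 fold change among those with separated groups and an unadjusted p under 0.05. Genes named as checks of the libraries or for an overlap with a member were chosen after their values were seen. So were Sin3a, Sin3b, Hdac1, Hdac2, Ncor1, Myh11, Rgs5, Cdh5, Sox10 and Xist. The 11 alternatives were 3 other scalings, no filter, limma-trend (prior count 2), 2 pairings of the libraries and each library left out. A result of the corepressor list is not reported here.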

Additional observations from a re-analysis of the deposited data

How the results depend on the processing

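With 2 libraries per group, neither the absence of calls nor a wide interval shows that a member did not differ, and intervals cover the spread between these libraries only. Other scalings (library size only, upper-quartile, the authors' size factors), no filter and limma-trend left the count of members called at 0 and the count at an unadjusted p under 0.05 at 1, Mxd4. Scaling by library size only moved the median of all genes from 0.02 to 0.13 and Max to 0.10.

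Leaving out 1 library gave 0 to 3 members called, 1 to 3 members at an unadjusted p under 0.05, 0 to 8 called genes of the other lists and 0 to 489 called genes overall. The highest counts of calls came without the deeper Prmt5sKO library, with Myc, Mycl and Mxd4 as the members, and without the shallower one 55 genes and no member were called. Prmt5 lay between -3.71 and -3.33 in these fits, at -3.66 without the deeper and -3.40 without the shallower Prmt5sKO library. Max turned to 0.094 without the deeper control and 0.066 without the shallower Prmt5sKO library, and Mycl to -0.37 without the latter. The cause was not tested. The other 8 members kept their sign in all 11 alternatives.

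The columns carry no replicate numbers and the labels do not say that numbers mark shared mice. A replicate block that paired the deeper libraries called 0 members and 0 genes. The crossed pairing called 1 member, Mxd4 (log2 fold change 1.81, adjusted p = 0.0269), 7 genes of the other lists and 346 genes, had 2 members at an unadjusted p under 0.05, and gave Prmt5 -3.54 (adjusted p = 0.0110). Deviations from the group means over 11487 genes correlated at -0.30 for the deeper libraries and 0.30 for the crossed pairs, each sharing the same 4 libraries. The crossed pairs are also those with like levels of Xist.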
